A study of Mus musculus with 9 samples.

Results

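Among 21349 protein-coding genes measured by RNA-seq in mouse bone marrow-derived dendritic cells, 51 were high after 2 h of lysophosphatidic acid (LPA) and back near the untreated level after 6 h. The members were chosen from mean CPM (a gene's count per 1000000 counts of its library). The choice required a mean of at least 2 CPM at 2 h, a ratio of 2 h to untreated of at least 2, and a ratio of 6 h to untreated between 0.67 and 1.5. Of the 10462 protein-coding genes with at least 2 CPM at 2 h, 199 had a ratio of at least 2. The 51 members were 25.6% of those, 146 genes were above the 6 h window and 2 were below it. Because these ratios chose the members, the changes of the members between the 3 groups are given as a description and carry no test.

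Dendritic cells were grown from mouse bone marrow. The study compared 3 untreated libraries with 3 libraries of cells given LPA for 2 h and 3 of cells given LPA for 6 h, within a project on LPA and type I interferon in ovarian cancer. The dose of LPA, the mouse strain, sex and age, the culture conditions and how long the untreated cells were kept are details not given in the sources used here. The labels do not say whether replicates came from separate mice or cultures, so the spread between the 3 libraries of a group may be technical.

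Totals ran from 29628817 to 84596899 counts per library. All 10 dendritic cell markers and all 10 macrophage markers exceeded 1 CPM, and the summed dendritic cell markers ran from 7149 to 8187 CPM in untreated cells, from 7435 to 8230 CPM at 2 h and from 6828 to 7484 CPM at 6 h. The macrophage markers summed to 3843 to 3895 CPM in untreated cells, 4097 to 4137 CPM at 2 h and 4230 to 4404 CPM at 6 h, so the sums of the groups were separate. Gene by gene, 1 of the 10 macrophage markers was called higher and 2 lower at 2 h (edgeR, adjusted p under 0.05). For the dendritic cell markers 2 of 10 were called higher and 1 lower. Of 10 neutrophil markers 4 exceeded 1 CPM, with sums of 2018 to 2200 CPM in untreated cells, 1955 to 2010 CPM at 2 h and 1825 to 1954 CPM at 6 h, while Elane, Ly6g and Mpo were under 0.1 CPM. The T cell, NK cell, stromal and erythroid lists summed to 0.189 to 2.26 CPM in every library, with Cd3g and Ncr1 at 0. The plasmacytoid dendritic cell list summed to 299 to 333 CPM in untreated cells, 277 to 342 CPM at 2 h and 187 to 215 CPM at 6 h, and the B cell list to 10.1 to 12.7, 6.61 to 10.9 and 1.92 to 2.19 CPM. The part of these marker lists in the results was not tested. In bulk RNA, fewer cells of a type and less RNA per cell cannot be told apart.

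LPA is a lysophospholipid that acts on cells through G protein-coupled receptors, and it is abundant in the ascites of ovarian cancer. Stimulated cells commonly transcribe a first wave of genes from factors that are already present, such as the cAMP-responsive factor CREB, which binds the cAMP response element (CRE). Many genes of such waves fall again quickly, since some of their products block the pathway that raised them and many of their mRNAs are short-lived. AU-rich elements in a 3' UTR, bound by proteins that recruit the mRNA decay machinery, are a known mark of short-lived mRNAs.

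The sequences below are shown for 2 features that the choice of members did not use, a CRE core in the promoter and an AU-rich nonamer in the 3' UTR. Both were found in a larger share of the members than of other genes. So were ACGTG in promoters, ATTTA in 3' UTRs and, by a small margin (12.5% against 10.6%), CACGTG in promoters. The whole CRE and the AP-1, CArG and NF-κB motifs were not, and all these shares are given further below. Promoter windows of 300 bases (250 before and 50 after a start) came from the RefSeq table of GRCm38.p6 and were matched for 40 of the 51 members. The 11 members with no matched entry included Hist1h1c, Smim3, Rab11fip1, Nrg1, Taf4b, Lmnb1, BC030867, Mettl13, Pvr and Trps1. In the first set, capitals mark the CRE core TGACG or its reverse complement CGTCA, with the whole palindrome TGACGTCA in capitals for Btg2. Each line is read on the gene's own strand, 5′ to 3′. The RefSeq starts used for Cish and Ets2 lay 633 and 332 bases after the GENCODE starts, so their matches shown here lie after those GENCODE starts.
Cish, chr9:107296550-107296578, plus strand: cccactcgggcaCGTCAgttcagggtccc
Ets2, chr16:95702363-95702391, plus strand: ccgcgctctctcCGTCAcccctgctgtcc
Zc3h6, chr2:128967263-128967291, plus strand: cctggaagtgatTGACGggcagtttcctc
Ccno, chr13:112987581-112987609, plus strand: cggttgccacggTGACGacagacgcgcgg
Fam117b, chr1:59912918-59912946, plus strand: gctcgagcgcgcTGACGctacaccaatga
Junb, chr8:84978838-84978866, minus strand: gcttcctgacagTGACGcgagccgcctcc
Slc1a4, chr11:20332831-20332859, minus strand: ggacctgggaaaCGTCAgggaggtgggga
Mex3b, chr7:82867149-82867177, plus strand: agctcccgccggTGACGttgcgcctccct
Spred2, chr11:19924379-19924407, plus strand: ccgctgggaagaCGTCAtcgcttccgccc
Btg2, chr1:134079302-134079333, minus strand: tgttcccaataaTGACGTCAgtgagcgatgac

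For Junb and Btg2, whose promoters carry the core and, in Btg2, the whole CRE, the 250 bases before the RefSeq start are given to show where the match lies; capitals mark the same letters. The first base of the match lies 106 bases before the start in Junb and 166 bases before it in Btg2.
Junb, chr8:84978749-84978998, minus strand: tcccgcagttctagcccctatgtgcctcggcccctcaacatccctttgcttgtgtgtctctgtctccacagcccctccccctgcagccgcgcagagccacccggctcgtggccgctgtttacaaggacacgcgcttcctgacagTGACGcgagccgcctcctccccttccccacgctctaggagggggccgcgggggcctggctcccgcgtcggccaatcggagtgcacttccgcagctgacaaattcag
Btg2, chr1:134079156-134079405, minus strand: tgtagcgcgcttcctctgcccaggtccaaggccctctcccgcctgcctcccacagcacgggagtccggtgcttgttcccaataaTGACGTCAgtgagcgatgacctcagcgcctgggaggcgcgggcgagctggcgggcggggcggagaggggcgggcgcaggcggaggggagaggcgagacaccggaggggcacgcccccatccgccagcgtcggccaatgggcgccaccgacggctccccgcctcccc

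In the third set, capitals mark the AU-rich nonamer TTATTTATT (written with T, as in the GENCODE M21 transcripts of GRCm38) in a stretch of the 3' UTR.
Cish, chr9:107301377-107301405, plus strand: tatacagtatTTATTTATTtattctcctt
Ptgs2, chr1:150105790-150105818, plus strand: ctgaccatatTTATTTATTtatgtgaaga
B3galt2, chr1:143648848-143648876, plus strand: acaaaaagctTTATTTATTagtaatacag
Zc3h6, chr2:129017651-129017679, plus strand: cctctatagtTTATTTATTttttaaatta
Ccno, chr13:112990177-112990205, plus strand: aacggattctTTATTTATTttgtagtaca
Chac1, chr2:119353773-119353801, plus strand: acttgaacctTTATTTATTgcaccatgtt
Specc1l, chr10:75311540-75311568, plus strand: aggccaggttTTATTTATTatcatgaaaa
Trps1, chr15:50659663-50659691, minus strand: cctgctgtatTTATTTATTttcttttggt

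Ratios of mean CPM at 2 h to untreated ran from 2.02 (Btg2) to 5.58 (Cish) with a median of 2.39, so most members were only modestly above the limit: 27 of 51 lay under 2.5-fold and 12 reached 3-fold. Among the 146 genes above the 6 h window the median ratio at 2 h was 3.05 and the highest was 92.7. At 6 h the members' ratios to untreated ran from 0.780 (Chac1) to 1.497 (Specc1l), with a median of 1.19. The 6 h mean was above the untreated mean in 42 members and below it in 9. By 6 h the members had lost a median of 88.6% of their rise (range 57.5% in Btg2 to 116% in Suco). Of the members, 14 exceeded 100 CPM at 2 h, 24 lay between 10 and 100 CPM and 13 were under 10 CPM.

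**Figure D1:**
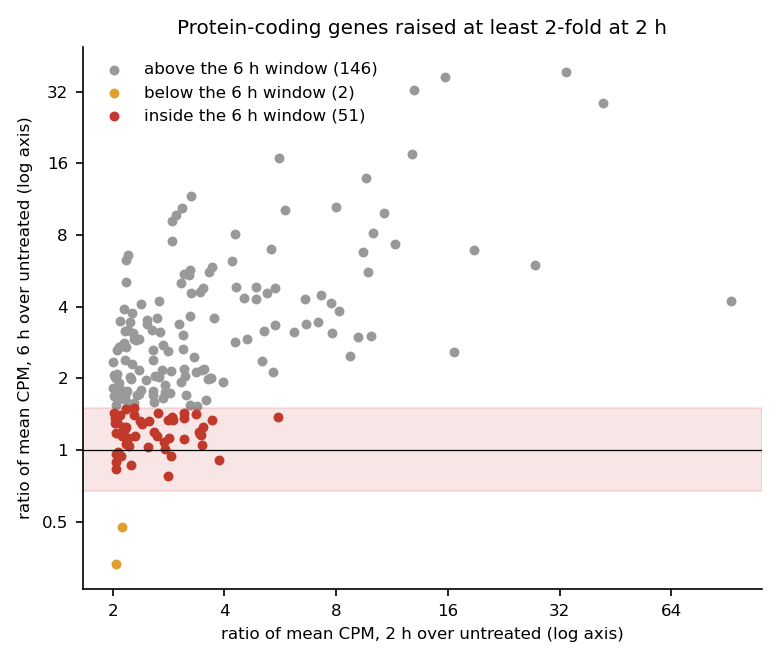
Each point is 1 of the 199 protein-coding genes whose mean CPM was at least 2-fold higher at 2 h than in untreated cells, with the ratio at 2 h on the x axis and the ratio at 6 h on the y axis, both on log axes. The shaded band is the 6 h window of 0.67 to 1.5, which holds the 51 members; 146 genes lie above it and 2 below it.

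In an edgeR fit over all 14363 genes that passed a filter on low counts, all 51 members were among the genes called higher at 2 h (Benjamini-Hochberg adjusted p under 0.05), as were 19.3% of all genes tested, and 0 were among the 19.2% called lower. All 51 had every 2 h library above every untreated library, against 22.6% of genes tested. Likewise all 51 were called lower at 6 h than at 2 h (24.4% of genes tested), and in all 51 every 6 h library lay below every 2 h library (24.6%). These contrasts chose the members, so the shares are the background only. Against untreated cells, 16 members were called higher at 6 h (26.4% of genes tested) and 0 lower (25.7%). In 31 members every 6 h library lay above every untreated library (36.2% of genes tested), in 2 (Hist1h1c and Suco) every one lay below (27.0%), and in 18 the groups overlapped. The 16, with log2 changes of 0.28 to 0.54, included Pde4b, Fam117b, Rab11fip1, Frat2, Frmd6, Pvr, Abtb2, Specc1l, Smim3, Fbxo34, Rad18, Sema4b, Spred2, Sfn and Btg2. Their number was 25 when only the 6 untreated and 6 h libraries were fitted, and 25 without replicate 2 at 2 h.

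**Figure D2:**
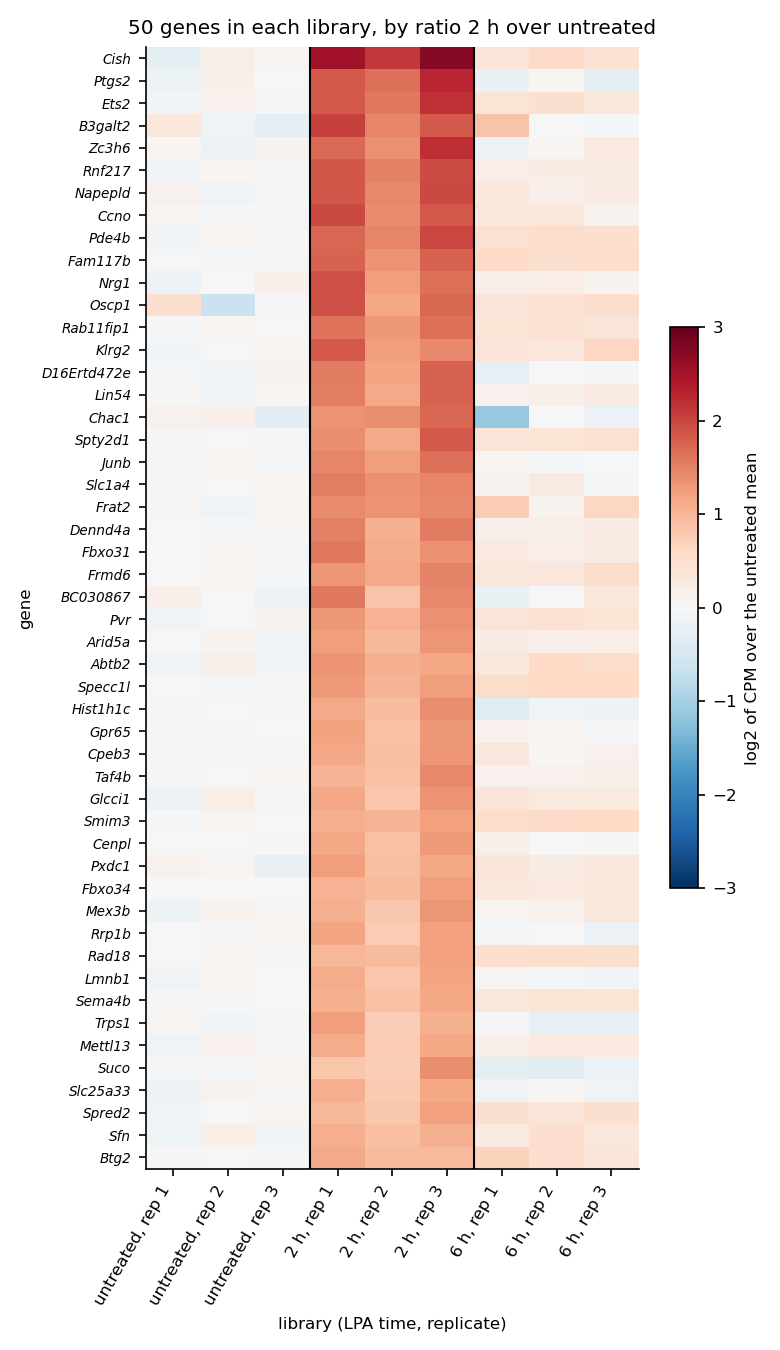
Rows are 50 of the members, ordered by their ratio of 2 h to untreated from Cish (5.58) to Btg2 (2.02), and columns are the 9 libraries. Colour is the log2 of the library's CPM over the gene's untreated mean; the 2 h columns are red in every row, with replicate 2 the palest of them in 48 of 50, and the 6 h columns lie near white.

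The 9 signalling members had ratios at 2 h of 2.03 (Spred2) to 5.58 (Cish). Per-library values are given in the order of replicates 1, 2 and 3. Gene coordinates are those of GENCODE M21 on GRCm38. Cish (chr9:107296026-107302784), a suppressor of cytokine signalling that blocks STAT5 activation, stood at 6.07, 8.22 and 7.69 CPM in the untreated libraries, at 42.1, 32.1 and 48.4 CPM at 2 h and at 9.55, 10.8 and 9.85 CPM at 6 h. Its lowest 2 h library was 32.1 CPM against 8.22 CPM in the highest untreated one, a ratio of means of 5.58, and the 6 h libraries remained slightly above all untreated ones. Pde4b (chr4:102087543-102607259), a phosphodiesterase that breaks down cAMP, stood at 32.4, 35.7 and 35.3 CPM in the untreated libraries, at 113, 94.7 and 138 CPM at 2 h and at 47.6, 50.3 and 48.9 CPM at 6 h. It was 3.34-fold over untreated at 2 h, and its 6 h libraries were all above the untreated ones (1.42-fold). Spred2, an inhibitor of Ras to MAP kinase signalling, stood at 20.8, 22.3 and 23.6 CPM in the untreated libraries, at 44.5, 38.7 and 52.3 CPM at 2 h and at 30.7, 28.9 and 30.8 CPM at 6 h. It was near the limit at 2 h (2.03-fold) and kept more of its rise than most members at 6 h (1.36-fold, groups separate).

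Ptgs2 (chr1:150100031-150108227), the inducible cyclooxygenase of prostaglandin synthesis, stood at 3.08, 3.77 and 3.35 CPM in the untreated libraries, at 12.2, 10.6 and 16.5 CPM at 2 h and at 2.97, 3.51 and 2.82 CPM at 6 h. It was 3.86-fold over untreated at 2 h, and its 6 h and untreated libraries overlapped. Nrg1, a ligand of the EGF receptor family, stood at 4.91, 5.52 and 6.18 CPM in the untreated libraries, at 21.2, 13.1 and 17.4 CPM at 2 h and at 6.18, 6.33 and 5.98 CPM at 6 h. All 2 h libraries were clear of the rest, replicate 2 being the lowest, and the 6 h and untreated libraries overlapped. Napepld, which makes N-acylethanolamine lipids, stood at 17.8, 15.04 and 16.01 CPM in the untreated libraries, at 59.6, 44.2 and 63.8 CPM at 2 h and at 20.3, 18.2 and 18.9 CPM at 6 h. Its 6 h libraries were just above the highest untreated one.

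The other signalling members were Gpr65, Frat2 and Frmd6. Gpr65, a proton-sensing receptor that raises cAMP, had means of 20.7 ± 0.756, 45.98 ± 6.74 and 21.5 ± 1.36 CPM in untreated cells, at 2 h and at 6 h (± SD, n = 3 here and below), and its 6 h libraries overlapped the untreated ones. Frat2, which binds the kinase GSK3, had 1.84 ± 0.107, 4.87 ± 0.188 and 2.65 ± 0.591 CPM. Frmd6, a FERM domain protein of the Hippo pathway, had 11.8 ± 0.411, 29.5 ± 3.605 and 15.7 ± 1.35 CPM. Over the 9 signalling members the median ratio at 2 h was 3.12, against 2.26 over the 10 members of transcription and chromatin.

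**Figure D3:**
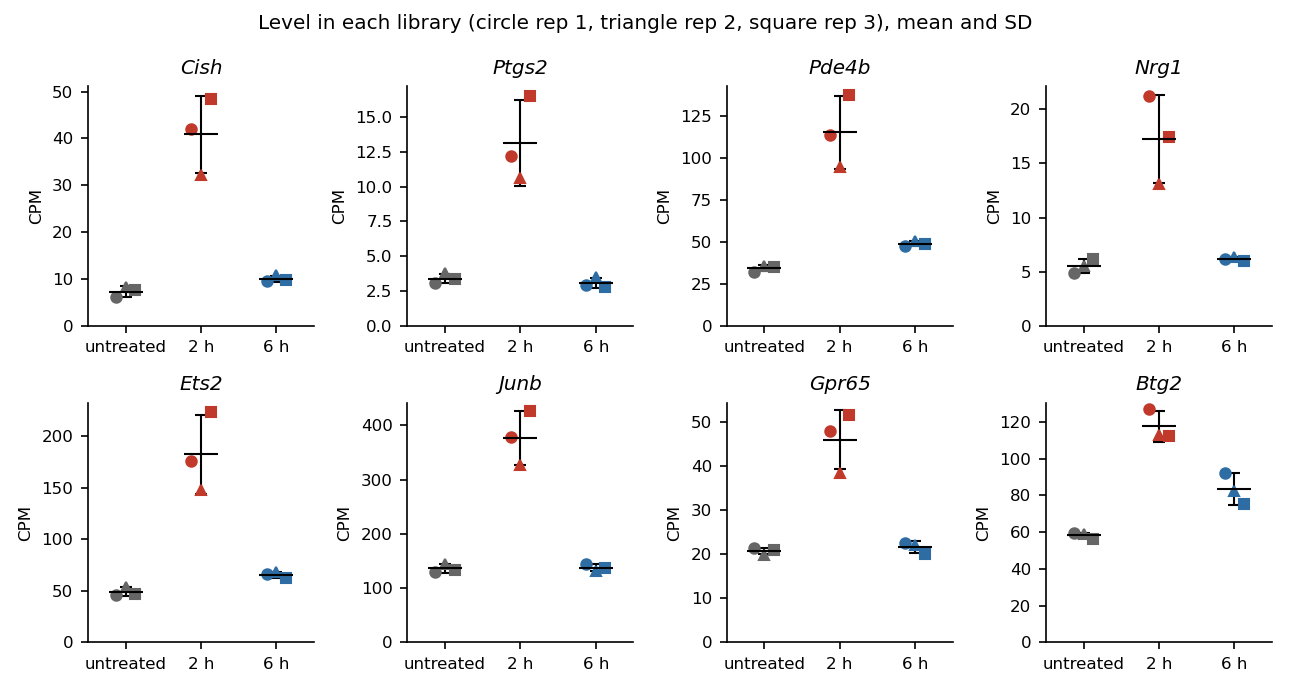
CPM of 8 members in each of the 9 libraries, with circles, triangles and squares for replicates 1, 2 and 3, a horizontal line for the mean and bars for the SD; each y axis starts at 0. In all 8 genes the 2 h libraries lie above all others; in Ptgs2, Nrg1, Junb and Gpr65 the 6 h libraries overlap the untreated ones, while in Pde4b and Btg2 they stay above.

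Cell surface members included Pvr, Sema4b and Klrg2. Pvr, a nectin-like ligand of the receptors CD226 and TIGIT, had 24.7 ± 1.77, 58.7 ± 6.61 and 32.7 ± 0.584 CPM. Sema4b, a membrane semaphorin, had 61.3 ± 1.95, 126 ± 12.7 and 80.4 ± 2.49 CPM. In both genes every 6 h library was above every untreated one. Klrg2, a lectin-like receptor with the lowest 2 h mean of all members, stood at 0.738, 0.778 and 0.817 CPM in the untreated libraries, at 2.78, 1.87 and 2.097 CPM at 2 h and at 1.01, 0.980 and 1.21 CPM at 6 h. Its counts ran from 30 to 160 per library, so counting error is a larger part of its spread than in most members.

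Transcription and chromatin formed the largest group, with 10 members. Junb (chr8:84974484-84978718), an AP-1 subunit, was the most abundant member and stood at 131, 145 and 134 CPM in the untreated libraries, at 378, 327 and 427 CPM at 2 h and at 145, 131 and 138 CPM at 6 h. Its mean at 6 h was 1.01 times the untreated mean and the libraries overlapped. Ets2 (chr16:95702075-95721051), an ETS family transcription factor that MAP kinases activate, stood at 46.2, 54.1 and 47.3 CPM in the untreated libraries, at 176, 148 and 224 CPM at 2 h and at 65.9, 68.4 and 62.6 CPM at 6 h. It was 3.71-fold over untreated at 2 h, and its 6 h libraries stayed above the untreated ones. Trps1, a GATA-type repressor, stood at 80.9, 73.7 and 79.6 CPM in the untreated libraries, at 185, 129.8 and 162 CPM at 2 h and at 75.6, 67.5 and 66.3 CPM at 6 h. Its 6 h mean was below the untreated mean, with overlapping libraries.

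Spty2d1, a histone chaperone, stood at 63.6, 61.8 and 61.1 CPM in the untreated libraries, at 164, 137 and 224 CPM at 2 h and at 81.8, 81.95 and 85.5 CPM at 6 h. Every 6 h library was above the untreated ones. Lin54, a DNA-binding subunit of the DREAM complex that controls cell cycle genes, had 22.1 ± 1.26, 62.7 ± 13.8 and 24.9 ± 0.986 CPM, a ratio of 2.84 at 2 h. Arid5a, which binds DNA and stabilises some inflammatory mRNAs, had 10.4 ± 0.749, 23.7 ± 3.01 and 11.9 ± 0.411 CPM. Taf4b, a subunit of the general factor TFIID, had 4.13 ± 0.166, 9.03 ± 1.8997 and 4.54 ± 0.0806 CPM. For 3 chromosome structure genes the 6 h means were close to or below untreated: the linker histone gene Hist1h1c had 70.7 ± 2.26, 158 ± 25.9 and 61.3 ± 5.21 CPM, the nuclear lamin gene Lmnb1 had 11.8 ± 0.810, 24.4 ± 3.07 and 11.5 ± 0.514 CPM, and Cenpl, of the centromere, had 8.696 ± 0.184, 18.9 ± 2.61 and 9.19 ± 0.610 CPM. In Hist1h1c every 6 h library was below every untreated one.

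The 5 members acting on RNA or ribosomes included Btg2 (chr1:134075170-134079120), an antiproliferative protein that recruits the CCR4-NOT deadenylase. It stood at 59.3, 58.9 and 56.5 CPM in the untreated libraries, at 127, 113 and 113 CPM at 2 h and at 92.3, 82.6 and 75.5 CPM at 6 h. At 2 h it had the smallest ratio of the members (2.02), and at 6 h it stayed above the untreated libraries. Zc3h6, a CCCH zinc finger protein, stood at 2.298, 1.95 and 2.39 CPM in the untreated libraries, at 7.16, 5.71 and 10.2 CPM at 2 h and at 1.99, 2.29 and 2.71 CPM at 6 h. Its 6 h and untreated libraries overlapped, with a ratio of 3.48 at 2 h. Cpeb3, which binds cytoplasmic polyadenylation elements, had 4.64 ± 0.178, 10.2 ± 1.47 and 5.23 ± 0.562 CPM, and the RNA-binding ubiquitin ligase Mex3b had 4.38 ± 0.419, 9.26 ± 1.63 and 4.998 ± 0.509 CPM. Rrp1b, of ribosome biogenesis, had 12.8 ± 0.483, 26.8 ± 4.62 and 12.01 ± 0.683 CPM; its 6 h ratio was 0.942.

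Of the 4 members of the ubiquitin system, Rnf217, a RING-type ligase, was highest in ratio and stood at 23.3, 25.7 and 25.5 CPM in the untreated libraries, at 90.2, 70.5 and 96.5 CPM at 2 h and at 28.8, 28.8 and 28.99 CPM at 6 h. It was 3.45-fold over untreated at 2 h, and its 6 h libraries lay just above the untreated ones. The F-box genes Fbxo31 and Fbxo34, substrate adaptors of SCF ligases, had 27.6 ± 1.03, 71.4 ± 11.5 and 32.7 ± 1.17 CPM and 29.98 ± 0.281, 63.8 ± 6.69 and 37.4 ± 0.614 CPM. Rad18, the ligase that marks PCNA at stalled replication forks, had 4.605 ± 0.158, 9.63 ± 1.04 and 6.49 ± 0.106 CPM and remained 1.41-fold over untreated at 6 h.

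Among the 5 members of membrane traffic, the cytoskeleton and glycosylation, B3galt2, a galactosyltransferase, stood at 3.06, 2.19 and 1.97 CPM in the untreated libraries, at 9.997, 6.67 and 8.58 CPM at 2 h and at 4.35, 2.37 and 2.32 CPM at 6 h. Replicate 1 was its highest library in all 3 groups, and its 6 h and untreated libraries overlapped. Rab11fip1, a Rab11 effector of recycling endosomes, stood at 58.5, 63.4 and 59.5 CPM in the untreated libraries, at 188, 148 and 190.0 CPM at 2 h and at 80.3, 82.4 and 79.1 CPM at 6 h. Specc1l, a protein that links actin and microtubules, stood at 83.1, 81.1 and 84.8 CPM in the untreated libraries, at 201, 169 and 196 CPM at 2 h and at 121, 126 and 125 CPM at 6 h. In both genes the 3 groups were separate, with 6 h between the others.

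Suco, a membrane protein of the rough endoplasmic reticulum, stood at 50.8, 49.4 and 54.9 CPM in the untreated libraries, at 92.2, 86.8 and 137 CPM at 2 h and at 42.3, 41.6 and 45.6 CPM at 6 h. Replicate 3 was far above the other 2 h libraries, and every 6 h library was below every untreated one. Dennd4a, an exchange factor for Rab GTPases, had 54.1 ± 1.75, 143 ± 24.8 and 62.1 ± 1.67 CPM. The metabolic and transport members were low to moderate in level. Slc1a4, a neutral amino acid transporter, had 2.36 ± 0.0989, 6.51 ± 0.365 and 2.54 ± 0.281 CPM. Slc25a33, a mitochondrial carrier of pyrimidine nucleotides, had 6.29 ± 0.570, 12.8 ± 1.71 and 6.06 ± 0.409 CPM. Mettl13, a methyltransferase of the elongation factor eEF1A, had 9.68 ± 0.826, 19.7 ± 2.81 and 11.5 ± 0.538 CPM.

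Chac1, an enzyme of glutathione breakdown and a known target of ATF4, stood at 0.886, 0.898 and 0.650 CPM in the untreated libraries, at 2.05, 2.13 and 2.69 CPM at 2 h and at 0.371, 0.814 and 0.714 CPM at 6 h. Its untreated and 6 h libraries overlapped, and the lowest of the 6 h libraries held 11 counts. The cell cycle members were Ccno and Sfn. Ccno, cyclin O, stood at 1.96, 1.78 and 1.82 CPM in the untreated libraries, at 7.34, 4.95 and 6.67 CPM at 2 h and at 2.295, 2.31 and 1.998 CPM at 6 h. Sfn, 14-3-3 sigma, stood at 8.39, 10.5 and 8.63 CPM in the untreated libraries, at 19.4, 17.2 and 19.2 CPM at 2 h and at 11.1, 13.1 and 11.6 CPM at 6 h. Their 6 h libraries were above all untreated ones by small margins.

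No role is given here for 8 members. Fam117b stood at 53.7, 52.1 and 55.5 CPM in the untreated libraries, at 182, 136 and 184 CPM at 2 h and at 79.5, 74.4 and 77.8 CPM at 6 h, with 3 separate groups. Oscp1 stood at 1.52, 0.689 and 1.05 CPM in the untreated libraries, at 4.12, 2.41 and 3.602 CPM at 2 h and at 1.42, 1.46 and 1.55 CPM at 6 h; its untreated libraries differed by more than 2-fold among themselves, and they overlapped those at 6 h. Smim3, a small membrane protein, stood at 77.5, 85.4 and 79.6 CPM in the untreated libraries, at 172, 165 and 190.1 CPM at 2 h and at 117, 121 and 122 CPM at 6 h. Its groups were separate, and at 1.49-fold over untreated at 6 h it lay near the upper limit. The remaining 5 were D16Ertd472e, BC030867, Pxdc1, Glcci1 and Abtb2, with ratios at 2 h of 2.86, 2.49, 2.16, 2.17 and 2.29 and at 6 h of 0.941, 1.03, 1.23, 1.251 and 1.404.

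Genes close to the limits show how the choice of members falls. At the limit of 2 CPM, Klrg2 (2.25 CPM at 2 h) and Chac1 (2.29 CPM) were inside, and Arhgef10 (1.88 CPM) and Myh7b (1.73 CPM) outside. At the 2-fold limit, Btg2 (2.02) and Sfn (2.02) were inside, and Cirbp (1.99) and Ralgds (1.98) outside. At 6 h, Chac1 (0.780) and Suco (0.834) were the lowest ratios inside, and Epha4 (0.474) and Cxcl3 (0.331) lay below the window. Specc1l (1.497) and Smim3 (1.49) were the highest inside, and Cpt1b (1.51) and Trib3 (1.53) lay above it. No member was near the lower limit at 6 h, whereas the upper limit runs through a dense range of genes.

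Replicate 2 of the 2 h group was lower than its partners in nearly all members. It was the lowest 2 h library in 49 of 51 members, against 67 of the 146 genes above the 6 h window (45.9%) and 2948 of the 10462 genes with at least 2 CPM at 2 h (28.2%). Its CPM divided by the mean of replicates 1 and 3 had a median of 0.778 over the members (range 0.625 in Oscp1 to 0.943 in Btg2), against 0.969 and 1.02 over the other sets of genes. Scaling by TMM (trimmed mean of M values) in place of totals gave 0.758, 0.944 and 0.998. This library was the deepest, with 84596899 counts. In all 51 members it was above every untreated library, and in 29 of 51 it was at least 2-fold over the untreated mean. Its values are part of the means that chose the members, so these counts carry no test. Over all genes tested, every 2 h library was above every untreated library in 22.6%. The coefficient of variation of the members had a median of 15.9% at 2 h, 5.5% in untreated cells and 5.02% at 6 h. At 2 h its median was 13.4% over the 146 genes above the 6 h window and 6.18% over the 10462 genes. Without this library the same rule gave 72 genes, all 51 members among them; without replicate 3 at 2 h it gave 40, with 39 of the members. A cause for the lower values in replicate 2 was not tested.

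**Figure D4:**
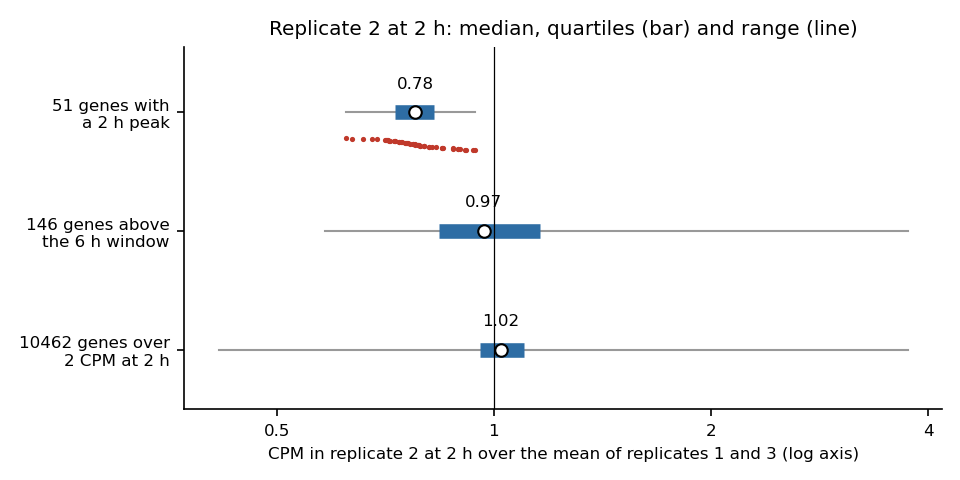
CPM in replicate 2 at 2 h divided by the mean of replicates 1 and 3 at 2 h, on a log axis, for 3 sets of genes; the open circle is the median, the bar spans the quartiles and the line the range, and red dots are the 51 members. All members lie below 1 (0.625 to 0.943), while the medians of the other sets are 0.97 and 1.02.

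The rule was also applied to the libraries of 2 replicate numbers at a time, and the genes so chosen were read in the libraries of the number left out. With number 1 left out, 47 genes were chosen (41 of them members), and their median ratio at 2 h in the left-out libraries was 2.62; 34 of them met the limits at both times there. With number 3 left out, 39 genes were chosen, the median was 2.89 and 32 met both limits. With number 2 left out, 69 genes were chosen, the median was 1.85, and 23 met both limits. In the left-out libraries, 2 h was above untreated in 47 of 47, 39 of 39 and 68 of 69 genes for numbers 1, 3 and 2. The lowest ratios there were 1.60, 1.93 and 0.310. The same share over all genes was not counted, and the replicates may be technical, so these counts are a description only.

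The CRE core, shown above for 10 members, was present on either strand of the promoter window in 23 of the 40 members with a window (57.5%). It was present in 34 of 112 genes above the 6 h window (30.4%), in 2816 of 8421 genes with at least 2 CPM at 2 h (33.4%) and in 20.8% of all 32851 windows of the RefSeq table. In 19 of the 23 a match lay before the RefSeq start, and in 4 only across or after it. Cish and Ets2 are among the 19, though their matches lay after the GENCODE starts. The 23 were Cish, Ptgs2, Ets2, B3galt2, Zc3h6, Ccno, Pde4b, Fam117b, Lin54, Chac1, Junb, Slc1a4, Frat2, Fbxo31, Specc1l, Cenpl, Mex3b, Rrp1b, Rad18, Suco, Slc25a33, Spred2 and Btg2. Their median ratio at 2 h was 2.75, against 2.29 in the 17 members with a window and no core. These ratios are among the values that chose the members, so they carry no test. Windows were taken at the RefSeq start nearest the GENCODE start; 33 lay within 100 bases of it, and over those the shares were 60.6%, 34.9% and 34.0%. The window of Pde4b, a gene with several promoters, was 334 kb from that start.

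The whole CRE, TGACGTCA, was found in 1 of 40 members (Btg2), or 2.5%, against 3.36% of the 8421 genes. ACGTG, the core of the hypoxia response element, was found in 16 members (40.0%) against 23.2% of the genes above the window and 26.6% of the 8421, and 2 members held TGACGTG, where it overlaps the CRE core. CACGTG, the E-box, was found in 5 members (12.5%) against 10.6% of the 8421 genes. The AP-1 motif TGANTCA was found in 0 of 40 members against 4.67% of the 8421, and the CArG box in 0 against 1.2%. The NF-κB motif was found in 2 members (Sema4b and Pxdc1), or 5%, against 17.0% of the genes above the window and 10.5% of the 8421. All were searched on both strands. The TATA box was searched only on the sense strand, shortly before the start. It was found in 1 member (2.5%), in 3.57% of the genes above the window and in 1.31% of the 8421. A match describes letters in these windows only. GC content of the windows had medians of 64.7% in members, 64.3% above the window and 61.3% over the 8421 genes.

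The AU-rich nonamer was found in the 3' UTR of 10 of 51 members (19.6%), against 13 of 146 genes above the window (8.90%) and 747 of 10445 genes with at least 2 CPM at 2 h (7.15%). The holders were Cish, Ptgs2, B3galt2, Zc3h6, Rnf217, Ccno, Chac1, Specc1l, Taf4b and Trps1. They include 6 of the 12 members with the largest ratios at 2 h, while Trps1 (2.04), Taf4b (2.19) and Specc1l (2.28) had ratios below the members' median. The holders' median ratio was 3.43, against 2.29 in the other 41. Their 3' UTRs were also longer, with a median of 2238.5 bases against 1205. Over 3' UTRs of 500 to 3000 bases the shares were 21.1% of members, 8.42% of the genes above the window and 7.45% of all. The shorter pentamer ATTTA, which lies within the nonamer, was found in 42 members (82.4%), 77.4% and 66.6%, and per kb of 3' UTR the medians were 1.53, 1.59 and 1.27. Since the holders' ratios at 2 h are among the values that chose the members, they carry no test.

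**Figure D5:**
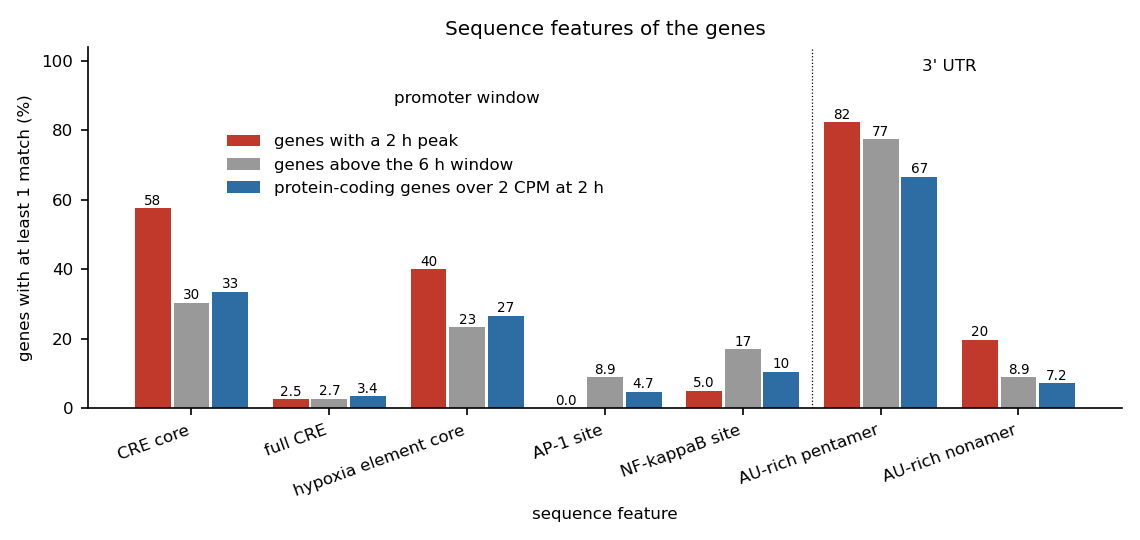
Percent of genes with at least 1 match to each sequence feature, in the promoter window (left of the dotted line) and in the 3' UTR (right), for the members (40 with a window, 51 with a 3' UTR), the genes above the 6 h window and protein-coding genes with at least 2 CPM at 2 h. The CRE core (57.5%, 30.4% and 33.4%) and the AU-rich nonamer (19.6%, 8.90% and 7.15%) are found in a larger share of the members than of either other set. So are the hypoxia element core (40.0%, 23.2% and 26.6%) and the AU-rich pentamer (82.4%, 77.4% and 66.6%). The NF-κB motif (5%, 17.0% and 10.5%), the AP-1 motif (0%, 8.93% and 4.67%) and the whole CRE (2.5%, 2.68% and 3.36%) are found in a smaller one.

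Gene structure was not used to choose the members. Exons had a median of 7 in members and in genes above the window and 9 over genes with at least 2 CPM at 2 h, and 3' UTRs a median of 1244, 1089 and 989 bases. Genomic spans had medians of 30.1, 21.6 and 22.2 kb. Chromosome 1 held 8 members (15.7%, against 5.90% of genes with at least 2 CPM at 2 h). The closest pairs were Spred2 and Slc1a4 on chromosome 11, 278 kb apart with 3 protein-coding genes between, and Suco and Mettl13 on chromosome 1, 655 kb apart. In 16 members an exon overlapped a gene on the opposite strand, such as Prdx2 for Junb, Cdc73 for B3galt2 and Ica1l for Fam117b. In the non-stranded libraries their reads cannot be told apart. In 3 members (Zc3h6, Glcci1 and Trps1) an exon overlapped a gene on the same strand. The share of genes with such overlaps was not counted over all genes.

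Pathway lists place the members among related genes that did not meet the rule. Of 15 lists, 8 held a member. Over all 14363 genes the median log2 change was -0.00 at 2 h and 0.01 at 6 h. In these lists the tested genes other than members are counted, with calls by the same edgeR fit (quasi-likelihood, Benjamini-Hochberg adjusted p under 0.05), and log2 changes are given ± SE. Among early response genes, where Junb and Btg2 belong, 17 of 27 others were higher and 7 lower at 2 h (median 0.44), and 15 were higher and 5 lower at 6 h (median 0.23); the 5 became 3 without replicate 1 of untreated cells, and 3 without replicate 3 at 6 h. Fosb, an AP-1 subunit, changed most, by 6.46 ± 0.43 at 2 h (adjusted p = 3.04e-05), from 0.295, 0.614 and 0.272 CPM to 34.9, 24.7 and 49.95 CPM. At 6 h it was at 1.18, 1.74 and 2.09 CPM (2.02 ± 0.56, adjusted p = 0.0202), a call lost without replicate 1 or without replicate 3 of untreated cells (adjusted p = 0.064 and 0.059) and without replicate 3 at 6 h (0.070). The nuclear receptors Nr4a1 and Nr4a2 changed by 3.29 ± 0.24 and 2.35 ± 0.18 at 2 h and by 1.51 ± 0.26 and 1.62 ± 0.18 at 6 h.

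Among cAMP and CREB response genes, where Pde4b and Ptgs2 belong, 19 of 25 others were higher and 4 lower at 2 h (median 1.13), and 19 were higher and 1 lower at 6 h (median 1.1). Besides Fosb, Areg, an EGF receptor ligand, and Ppargc1a, a transcriptional coactivator, changed by 5.28 ± 0.52 and 3.47 ± 0.39 at 2 h and by 4.19 ± 0.58 and 3.52 ± 0.39 at 6 h. Their levels were low, with 2 h means of 1.05 and 0.632 CPM. Of 3 other ligands of the EGF receptor family tested beside Nrg1, Areg was higher and Hbegf lower (-0.82 ± 0.15) at 2 h.

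In the list of MAP kinase feedback genes, where Spred2 belongs, 8 of 19 others were higher and 6 lower at 2 h (median -0.22), and 8 were higher and 1 lower at 6 h (median 0.22). The 1 became 2 without replicate 3 at 2 h, 2 with a replicate block and 3 when only the 6 untreated and 6 h libraries were fitted. The phosphatase genes Dusp8 and Dusp14 changed by 2.95 ± 0.18 and 2.27 ± 0.21 at 2 h, and Dusp6, which inactivates ERK, by -1.96 ± 0.39 (adjusted p = 0.00788). At 6 h Dusp6 was at 50.8, 39.1 and 37.5 CPM, a value of -0.52 ± 0.37 that was not called (adjusted p = 0.286); it was called with only those 6 libraries (-0.52, adjusted p = 0.0073) and without replicate 3 at 2 h (adjusted p = 0.0497). At 2 h Dusp6 moved opposite to Spred2, from 59.1, 56.6 and 60.8 CPM to 14.5, 23.02 and 6.67 CPM, with replicate 2 the highest of its 2 h libraries. Regulators of mRNA decay beside Btg2 had 7 of 12 higher and 4 lower at 2 h, and 6 higher and 3 lower at 6 h. Btg1, a relative of Btg2, changed by 0.99 ± 0.06 at 2 h and 0.31 ± 0.06 at 6 h, Tob1 by 0.72 ± 0.06 and 0.49 ± 0.06, and Btg3 by 0.65 ± 0.22 at 2 h, with 0.16 ± 0.23 at 6 h (not called, adjusted p = 0.594). The call of Btg3 at 2 h (adjusted p = 0.0486) was lost in 12 of 15 alternatives, among them without replicate 3 of untreated cells, where its change was 0.43 at 2 h and -0.060 at 6 h.

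In the prostanoid pathway, where Ptgs2 belongs, 2 of 14 others were higher and 5 lower at 2 h (median -0.13), and 0 were higher and 11 lower at 6 h (median -0.35). The receptor genes Ptgir and Ptger4 changed by -1.25 ± 0.08 and -0.64 ± 0.06 at 2 h and by -0.81 ± 0.08 and -0.33 ± 0.06 at 6 h. Pla2g4a, the phospholipase that releases arachidonic acid, changed by 0.32 ± 0.09 at 2 h (adjusted p = 0.0122) and -0.36 ± 0.09 at 6 h (adjusted p = 0.00445). Its 2 h call was lost without replicate 2 of untreated cells (adjusted p = 0.056) and without replicate 1 at 2 h (0.051), which left 1 gene higher at 2 h in either case.

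In the list of ATF4 stress response genes, where Chac1 belongs, 8 of 18 others were higher and 0 lower at 2 h (median 0.24), and 6 were higher and 3 lower at 6 h. The 0 became 1 without replicate 3 of untreated cells, 1 without replicate 3 at 2 h and 2 without replicate 2 at 2 h. Ddit4, an inhibitor of mTORC1, changed by 2.62 ± 0.15 at 2 h and 1.61 ± 0.15 at 6 h, Trib3 by 1.76 ± 0.15 and 0.58 ± 0.16, and Cebpb by 0.82 ± 0.15 at 2 h, with 0.37 ± 0.15 at 6 h. The last was not called at 6 h (edgeR, adjusted p = 0.0653). It was called without replicate 2 at 6 h (edgeR, adjusted p = 0.000815), with column totals in place of TMM (edgeR, adjusted p = 0.0454) and with DESeq2 (adjusted p = 0.00823). Among growth arrest and p53 target genes, where Btg2 belongs, 8 of 14 others were higher and 2 lower at 2 h, and 3 were higher and 3 lower at 6 h (5 lower with a replicate block). Gadd45a changed by 1.14 ± 0.08 and 0.78 ± 0.08, the CDK inhibitor gene Cdkn1a by 0.83 ± 0.08 and -0.43 ± 0.08, and Plk2 by -0.77 ± 0.12 at 2 h, with -0.14 ± 0.12 at 6 h (not called, adjusted p = 0.344).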

How the data were processed

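RNA-seq of 9 libraries was analysed, 3 each of untreated cells and of cells given LPA for 2 h or 6 h. Per the labels' protocols, libraries were non-stranded mRNA libraries. The authors deposited 1 table of expected counts per gene, as whole numbers; the submitters' processing notes name RSEM 1.2.3, DESeq2 and mm10. The aligner and the release of gene models used upstream were not found in the labels or file. RSEM splits ambiguous reads among transcripts, which can shift counts between close paralogs.

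The 38887 rows were matched through their transcript identifiers to GENCODE M21 genes (GRCm38); 37776 matched 1 gene, with 98.46% of counts. Totals ran from 29628817 to 84596899, and chi-square per degree of freedom between replicates ran from 7.05 to 31.1, beyond sampling noise in every pair. CPM used column totals. The values of 1 member and 1 marker gene are not reported here. Members and gene lists were chosen with earlier results of these data known. Calls came from edgeR 4.0.16 (R 4.3.3; TMM factors 0.974 to 1.03; filterByExpr with minimum count 10 and total 15; glmQLFit robust, glmQLFTest; all 9 libraries; adjusted p under 0.05), tested on simulated data. The common biological coefficient of variation was 0.0747. Deviations from the group means correlated between same-numbered untreated and 6 h libraries at 0.144 to 0.178. For untreated and 2 h libraries the correlations were 0.0904 to 0.184, and for 2 h and 6 h libraries 0.0347 to 0.128. No label states that same-numbered libraries are paired, and the fit that gave the calls took all libraries as unpaired. A replicate block was fitted only as an alternative.

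Per-library values are given for the 12 members with the largest ratio at 2 h, the 8 with the highest mean, members in a list, and the 2 nearest each limit; from each list that held a member, the 3 called genes with the largest change at 2 h are named. Alternatives were DESeq2 1.42.0, its size factors, column totals, no filter, a replicate block, fewer libraries and other limits in the rule; variants of the promoter window, transcript and scaling were added after seeing the data. Figures used matplotlib and Python.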

Additional observations from a re-analysis of the deposited data

Results flagged for a closer look

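Among the genes named above from the lists that held a member, 2 were called higher than untreated at 2 h and lower at 6 h. These genes are no members. A call for 6 h against 2 h was also required, so the adjusted p-values below were part of the choice. The other genes of the lists were not screened in this way. Cdkn1a, the p21 inhibitor of cyclin-dependent kinases, stood at 198, 228 and 210.3 CPM in the untreated libraries, at 395, 329 and 397 CPM at 2 h and at 159.5, 165 and 162 CPM at 6 h. Its log2 change at 6 h against 2 h was -1.26 ± 0.08 (SE, n = 3 libraries each; edgeR quasi-likelihood test, adjusted p = 5.21e-06). Pla2g4a, the cytosolic phospholipase A2, stood at 40.8, 37.1 and 39.1 CPM in the untreated libraries, at 49.9, 43.1 and 51.2 CPM at 2 h and at 35.1, 30.5 and 28.4 CPM at 6 h. Its change between the times was -0.68 ± 0.09 (edgeR, adjusted p = 0.000118). In both genes all 3 of the 2 h libraries were above, and all 3 of the 6 h libraries below, every untreated library.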

How the results depend on the processing

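The number of members was 28 when the 6 h window was narrowed at both limits, the lower one to 0.8. Of the 23 members so lost, only Chac1 (0.780) lay under 0.8, so the others were lost to the lowered upper limit. The number was 12 with a 3-fold limit at 2 h, and from 40 to 72 when 1 library was left out. Of the other settings, CPM from TMM-scaled totals, group medians and minimums of 1 or 5 CPM gave 56, 52, 61 and 46. A replicate block gave 6135 called genes at 2 h, 8036 at 6 h and 7588 for 6 h against 2 h, in place of 5525, 7472 and 6991. It changed no call of a gene named from the lists except Btg3 at 2 h (adjusted p = 0.113). It gave 2 in place of 1 lower MAP kinase feedback genes at 6 h, 1 in place of 0 lower ATF4 genes at 2 h and 5 in place of 3 lower growth arrest genes at 6 h. Leaving out 1 library gave 4352 to 5580 calls at 2 h, 6226 to 7896 at 6 h and 5767 to 7425 for 6 h against 2 h. Btg3 at 6 h changed sign without replicate 3 of untreated cells (-0.060 against 0.158; from -0.060 to 0.379 over the libraries left out); its untreated libraries were at 9.11, 7.22 and 4.65 CPM. The cause of these shifts was not tested. With any annotated transcript, or only windows within 100 bases of the start, the share with a nonamer was 21.6% and that with a CRE core 60.6%. Klrg2, Chac1 and Oscp1, with 11 to 42 counts in their lowest library, are limited by depth.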

Other observations

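Each of the genes below failed 1 part of the rule. Gm26813 met its limits but is not protein-coding, and Epha4 (0.474) and Cxcl3 (0.331) lay well below the 6 h window. The lincRNA Gm26813 stood at 1.24, 1.302 and 1.13 CPM in the untreated libraries, at 3.72, 3.097 and 4.64 CPM at 2 h and at 1.38, 1.33 and 1.27 CPM at 6 h, so its 2 h libraries were apart from all others. Myh7b, a myosin heavy chain gene under the limit of 2 CPM, stood at 0.127, 0.135 and 0.105 CPM in the untreated libraries, at 1.1996, 1.49 and 2.4999 CPM at 2 h and at 0.169, 0.240 and 0.127 CPM at 6 h. Cxcl3, a chemokine that attracts neutrophils, stood at 159.6, 208 and 201 CPM in the untreated libraries, at 361, 338 and 460.0 CPM at 2 h and at 61.5, 68.4 and 58.2 CPM at 6 h, and Epha4, an ephrin receptor, at 5.61, 4.15 and 4.44 CPM in the untreated libraries, at 12.03, 7.79 and 10.3 CPM at 2 h and at 2.97, 2.16 and 1.602 CPM at 6 h. In both, the 2 h libraries were the highest and the 6 h libraries lay below every untreated one. Cirbp, a cold-inducible RNA-binding protein, stood at 10.6, 9.09 and 9.49 CPM in the untreated libraries, at 19.5, 17.2 and 21.5 CPM at 2 h and at 9.32, 10.2 and 8.85 CPM at 6 h, and its 6 h libraries overlapped the untreated ones. These genes were chosen after their values were seen, and their values are given without a test.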
